A study of Mus musculus with 4 samples.

Results

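Plk2, Trp53 and 8 genes commonly listed as targets of the p53 protein were followed in RNA-seq data from 4 cultures of the 4T1 breast tumour line, which comes from a mouse mammary carcinoma and is an established cell line. The 10 genes were taken by symbol from 24411 listed genes. Plk2 was chosen by its TPM values in these 4 libraries, which separated the 2 groups, so its group values are a description without a test. Trp53, Cdkn1a, Mdm2, Ccng1, Sesn2, Zmat3, Trp53inp1, Gdf15 and Phlda3 were chosen for their known connection to p53. All 10 were listed in every library, and 9 passed the filter on low values, Gdf15 being the exception. Both groups are 4T1 cells with no drug treatment named in the labels. The control group holds 2 libraries (control 1 and control 2) labelled with the genotype control, and the CD95ko group holds 2 libraries in which the gene of the death receptor CD95 (Fas) was edited. The protocols describe lentiviral Cas9 with blasticidin selection, a pair of guide RNAs for exon 9 and single-cell cloning, and they name an untransduced culture, a Cas9 line and 2 clones as RNA sources. Each CD95ko library is therefore 1 clone, and each control may be a different line. A p-value here sets the group difference against the spread between these libraries, with variances drawn toward a trend over all tested genes. The spread between repeat cultures of a line or clone was not measured. The part of cloning and selection in the group differences was not tested.

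p53 is a transcription factor that is held at a low level by the ubiquitin ligase Mdm2 and is stabilised when DNA is damaged or growth signals are abnormal. It then raises genes that stop the cell cycle, repair DNA, buffer metabolism or start cell death, and it raises Mdm2, which closes a feedback loop. Plk2 is a Polo-like kinase induced by serum and by p53, with roles in centriole duplication and in the response to stress. 4T1 cells are generally described as lacking functional p53 protein, and transcript levels do not show protein activity.

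Values are in TPM, transcript abundance scaled for transcript length and to the same sum in every library, and sequencing depth is unknown. Every fold change is a difference in log2(TPM + 1) between the CD95ko and control means, which understates changes of weakly expressed genes. The model was limma across 11167 genes with Benjamini-Hochberg adjustment. In it 6 genes passed an adjusted p of 0.05 (0.0537%) and 1667 had an unadjusted p under 0.05 (14.9%), of which 62.0% were higher in CD95ko. That share was 51.9% under quantile normalization and 43.7% when library medians were made equal, and across the tested genes the median fold change moved from 0.13 to 0.002 and -0.071 (log2). The edited gene, Fas, had 49.37 TPM in control 1 and 39.21 TPM in control 2, and it had 15.77 TPM in the library labelled CD95ko 1 and 49.45 TPM in the library labelled CD95ko 2. Because the second of these was no lower than the controls, directions refer to the libraries as labelled. Of 6 epithelial markers all were listed above 0, with a summed level of 4460 to 4520 TPM in the controls and 7510 and 11600 TPM in the CD95ko libraries. For 5 of the 6 the groups did not overlap and CD95ko was higher, as for 29.2% of all tested genes. Cldn7 was not higher, at 162.64 and 95.14 TPM in the controls and 130.92 and 60.0 TPM in the CD95ko libraries. The summed level of 6 fibroblast markers was 0.97 to 4.52 TPM with Col3a1, Dcn and Lum at 0, and that of 6 endothelial markers was at most 0.28 TPM. Of 6 leukocyte markers 4, among them Ptprc, were at 0 in every library, and the sum was 40.0 to 45.8 TPM in 3 libraries and 151 TPM in the library labelled CD95ko 2. The 2 that were detected differed: Cd68 was 44.57 and 42.05 TPM in control 1 and control 2, 17.83 TPM in the library labelled CD95ko 1 and 146.27 TPM in the library labelled CD95ko 2, and Csf1r was 1.22 TPM and listed at 0 in the controls and 22.22 and 5.07 TPM in the CD95ko libraries. The part of the epithelial, Cd68 and Csf1r differences in the results that follow was not tested.

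Plk2 transcript was lower in both CD95ko libraries than in both controls, and by almost the same amount in each. The gene spans chr13:110395046-110400844 (forward strand, GRCm38, GENCODE M21). It was listed at 258.23 TPM in control 1, 260.17 TPM in control 2, 38.03 TPM in the library labelled CD95ko 1 and 36.79 TPM in the library labelled CD95ko 2. The means were 259 ± 1.37 and 37.4 ± 0.877 TPM (SD, n = 2 in each group), so the CD95ko mean was 14.4% of the control mean. The log2 fold change was -2.76.

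The gap between the libraries of a group, which was part of the pattern Plk2 was chosen for, was 0.011 between the controls and -0.047 between the CD95ko libraries on the log2(TPM + 1) scale. In the controls Plk2 was the most abundant of the 10 genes and stood above 94.9% and 95.2% of tested genes. In the CD95ko libraries it stood above 64.8% and 64.9% of them.

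The 250 bases before the annotated Plk2 start are shown because this gene has the largest group difference of the 10. They come from RefSeq (GRCm38.p6, chr13:110394794-110395043, forward strand), and capitals mark a cyclic AMP response element.

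Plk2: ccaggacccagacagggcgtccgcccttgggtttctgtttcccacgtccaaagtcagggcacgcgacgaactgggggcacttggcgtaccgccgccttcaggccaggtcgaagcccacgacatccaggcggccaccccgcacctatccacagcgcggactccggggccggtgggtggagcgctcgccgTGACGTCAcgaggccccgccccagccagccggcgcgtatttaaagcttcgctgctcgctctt

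The element TGACGTCA is a palindrome bound by CREB and ATF family factors, and it ended 54 bases before the annotated start. It was searched on both strands after the sequence had been read, and it occurred in 508 of 32851 RefSeq windows of the same length (1.55%). The AP-1 motif TGANTCA, searched on both strands, was not in this window and occurred in 6.75% of all windows. The p53 half-site consensus, searched without mismatch on both strands, was not in it either and occurred in 7.13% of all windows. These are letter matches in a short window, and no factor binding was measured.

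**Figure D1:**
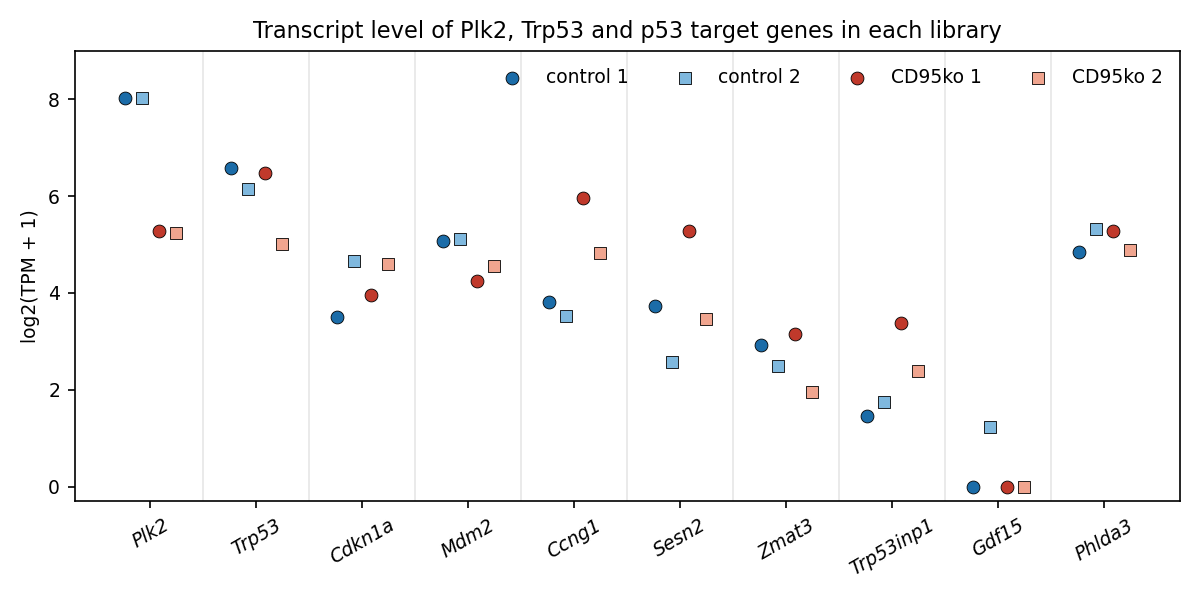
Level of each of the 10 genes as log2(TPM + 1) on the vertical axis, with 1 point per library (blue for the 2 controls, red for the 2 CD95ko libraries, circles for replicate 1 and squares for replicate 2). Plk2 forms a tight pair in each group, at 258.23 and 260.17 TPM against 38.03 and 36.79 TPM, whereas points of Trp53, Cdkn1a, Sesn2, Zmat3 and Phlda3 from the 2 groups overlap.

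Of the 8 other genes that could be tested, 0 passed an adjusted p of 0.05 in limma and 1, Ccng1, had an unadjusted p under 0.05, against 0.0537% and 14.9% of all tested genes. The count past the adjusted threshold was 0 under each alternative setting too, including without the library labelled CD95ko 2. Which of the 8 had an unadjusted p under 0.05 changed with each library left out, and the count over all tested genes changed too. The count among the 8 was 2 without the filter, under quantile normalization and with equal medians (Ccng1 and Mdm2). It was 2 without the variance trend (Ccng1 and Trp53inp1) and 2 with the replicate block (Ccng1 and Sesn2). Groups did not overlap for 3 of the 8, with Ccng1 and Trp53inp1 higher and Mdm2 lower in CD95ko, where this held for 47.6% of all tested genes (29.2% higher, 18.3% lower). The median log2 fold change of the 8 was 0.1, with a range from -0.7 to 1.73, beside 0.13 for all tested genes. That median was 0.44 without control 2, 0.32 without the library labelled CD95ko 2, 0.06 without the library labelled CD95ko 1 and -0.08 without control 1, and it was -0.05 under quantile normalization and -0.1 with equal medians. p53 target transcripts thus stood on both sides of the control values.

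Trp53 encodes p53 itself and spans chr11:69580359-69591873 (forward strand). It was listed at 94.24 and 69.45 TPM in control 1 and control 2, 88.17 TPM in the library labelled CD95ko 1 and 31.03 TPM in the library labelled CD95ko 2. The first clone lay between the controls, and the other was at 37.9% of their mean. The log2 fold change of -0.62 ± 0.49 (SE) did not pass (limma adjusted p = 0.589). That fold change was 0.12 without the library labelled CD95ko 2 and -1.35 without the library labelled CD95ko 1. Of the 25-base stretches in the longest coding Trp53 transcript, 24.3% also occur in transcripts of other genes, chiefly the pseudogene Trp53-ps, so its level carries that uncertainty.

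Mdm2 (chr10:117688875-117710758, reverse strand), the ubiquitin ligase that marks p53 for degradation, was lower in both CD95ko libraries. It was 32.51 and 33.8 TPM in the controls and 17.86 and 22.4 TPM in the libraries labelled CD95ko 1 and CD95ko 2. The groups did not overlap, and the CD95ko mean was 60.7% of the control mean. The log2 fold change of -0.7 ± 0.41 (SE) did not pass (limma adjusted p = 0.453), and it was between -0.9 and -0.55 under the alternatives.

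Cdkn1a (chr17:29090976-29100727, forward strand) encodes p21, the cyclin-dependent kinase inhibitor that is the best known arrest target of p53. It was 10.34 TPM in control 1, 24.09 TPM in control 2, 14.53 TPM in the library labelled CD95ko 1 and 23.24 TPM in the library labelled CD95ko 2. Both CD95ko values lay inside the range of the controls, which themselves differed 2.33-fold (log2 fold change 0.2 ± 0.54 SE, limma adjusted p = 0.894). The sign was negative without control 1 (-0.37) and without the library labelled CD95ko 2 (-0.12).

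Ccng1 (chr11:40748552-40755311, reverse strand), which encodes cyclin G1, a p53-induced partner of a phosphatase acting on Mdm2, had the highest fold change of the 9 tested genes. It was 12.95 and 10.47 TPM in control 1 and control 2, 60.87 TPM in the library labelled CD95ko 1 and 27.34 TPM in the library labelled CD95ko 2. Both clones lay above both controls, at 520% and 233% of the control mean. The log2 fold change was 1.73 ± 0.5 (SE), with a limma adjusted p of 0.185 and an unadjusted p of 0.00739. It was 1.16 without the library labelled CD95ko 1 and 2.29 without the library labelled CD95ko 2. The unadjusted p was then 0.0852 and 0.00104, and it was 0.0656 without control 1 and 0.0973 without control 2.

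Sesn2 (chr4:132492032-132510501, reverse strand) encodes sestrin 2, a leucine-binding inhibitor of mTORC1 that responds to p53 and to the stress factor ATF4. It was 12.26 and 4.98 TPM in control 1 and control 2, 37.84 TPM in the library labelled CD95ko 1 and 10.05 TPM in the library labelled CD95ko 2. Only the first clone lay outside the control range. The log2 fold change of 1.22 ± 0.7 (SE) did not pass (limma adjusted p = 0.444), and it was 0.31 without the library labelled CD95ko 1, 2.12 without the library labelled CD95ko 2 and 0.64 without control 2.

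Trp53inp1 (chr4:11156431-11174379, forward strand), a stress-induced nuclear protein with a role in autophagy and cell death, was the least abundant of the 9 tested genes in the controls. It was 1.74 and 2.38 TPM in control 1 and control 2, 9.47 TPM in the library labelled CD95ko 1 and 4.2 TPM in the library labelled CD95ko 2. Both clones were above both controls. The log2 fold change of 1.28 ± 0.64 (SE) did not pass (limma adjusted p = 0.385), and it was 0.77 without the library labelled CD95ko 1.

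Zmat3 (chr3:32334792-32366014, reverse strand) encodes an RNA-binding zinc finger protein that acts in tumour suppression downstream of p53. It was 6.56 and 4.58 TPM in control 1 and control 2, 7.89 TPM in the library labelled CD95ko 1 and 2.89 TPM in the library labelled CD95ko 2, so the clones lay on either side of the controls (limma adjusted p = 0.94).

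Phlda3 (chr1:135766119-135769136, forward strand), a pleckstrin homology domain protein that inhibits Akt, was 27.63 and 38.83 TPM in the controls and 37.7 and 28.67 TPM in the libraries labelled CD95ko 1 and CD95ko 2. The group means were both 33.2 TPM (limma adjusted p = 0.996).

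Gdf15 (chr8:70629393-70632456, reverse strand), a secreted stress cytokine, was listed at 1.34 TPM in control 2 and at 0 in the other 3 libraries. It was not tested in the filtered model.

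**Figure D2:**
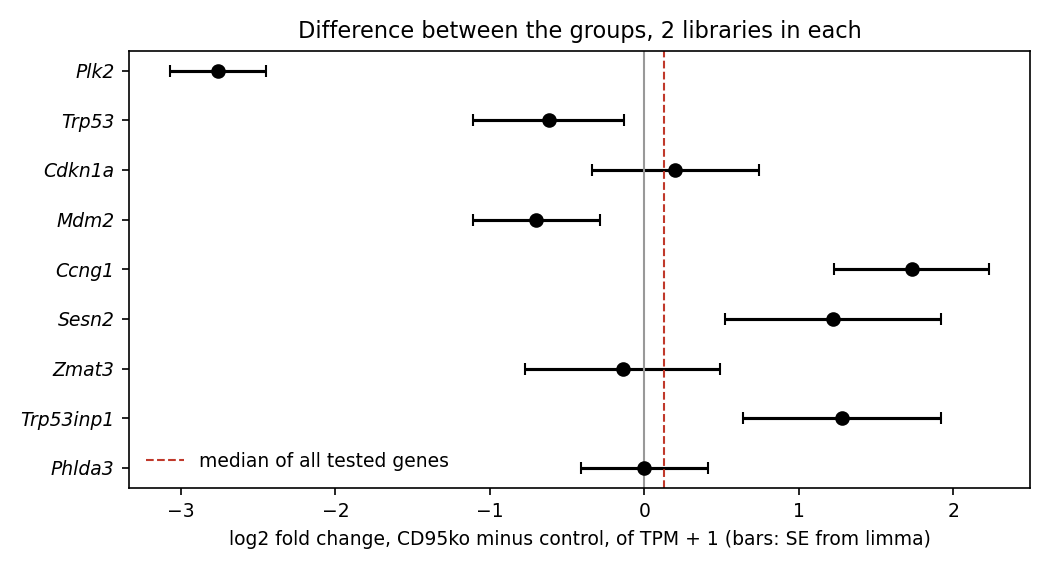
Log2 fold change (CD95ko minus control, of TPM + 1) with its limma standard error for the 9 genes that passed the filter, and the median of all tested genes at 0.13 as a dashed line. Plk2 stands at -2.76, while the other 8 genes lie between -0.7 and 1.73. Plk2 was chosen because its values separated the groups, so its point and bar are a description without a test.

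The 2 CD95ko libraries differed from each other for part of the 9 tested genes, and the wider list of p53 targets differed in both directions. In that wider list, log2(TPM + 1) in CD95ko 2 minus CD95ko 1 was 1.45 for Xpc and 1.25 for Sesn1. It was -1.25 for Aen and -1.85 for Plk3. These genes are examples and not the widest gaps of that list. The widest were 6.92 for Ephx1, listed at 0 in CD95ko 1, and -3.8 for Sco2, listed at 0 in CD95ko 2. Of the 9 genes, 5 were over 2-fold apart on the log2(TPM + 1) scale, and all 5 were higher in the library labelled CD95ko 1, namely Trp53, Ccng1, Sesn2, Zmat3 and Trp53inp1. Among all tested genes 23.3% were that far apart, and 13.4% were over 2-fold higher in that library and 9.9% over 2-fold lower. Sesn2 was 3.77-fold higher there in TPM, Trp53 2.84-fold, Zmat3 2.73-fold, Trp53inp1 2.25-fold and Ccng1 2.23-fold. Cdkn1a and Mdm2 were lower in it, at 0.625 and 0.797 of the TPM in the library labelled CD95ko 2. Fas ran the other way as well, at 0.319. With 1 library per clone these differences have no replicate check.

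The controls were over 2-fold apart for 2 of the 9 genes, where 14.4% of all tested genes were (12.6% higher in control 1, 1.84% higher in control 2). Cdkn1a was 2.33-fold higher in control 2, and Sesn2 was 2.46-fold higher in control 1. Sesn2, Trp53, Zmat3 and Ccng1 were lower in the second library of each group, but the labels do not pair libraries by replicate number.

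**Figure D3:**
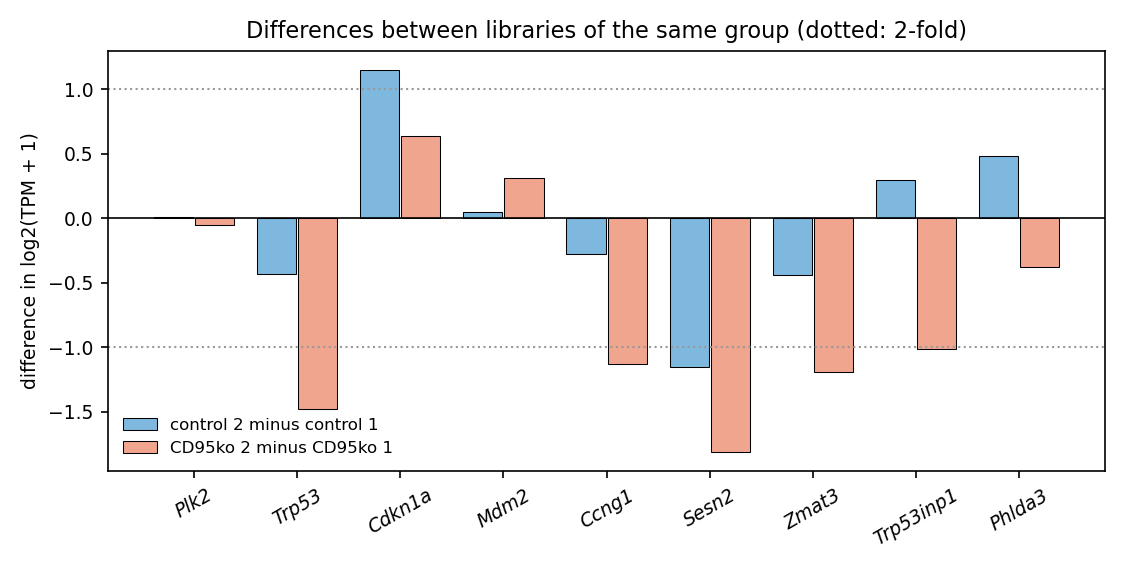
Difference in log2(TPM + 1) between the 2 libraries of the same group for the 9 tested genes (blue bars, control 2 minus control 1; red bars, CD95ko 2 minus CD95ko 1; dotted lines, 2-fold). The red bars of Trp53, Ccng1, Sesn2, Zmat3 and Trp53inp1 reach below the lower dotted line, and both Plk2 bars are close to 0.

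Promoter sequence is given for the 3 target genes with a classical p53 link whose window held the p53 half-site consensus, since they showed 3 different outcomes in these libraries (Cdkn1a overlapping, Mdm2 lower, Ccng1 higher). RefSeq windows were found for 8 of the 10 genes. Capitals mark the exact half-site matches within the 250 bases before the annotated start (GRCm38.p6; Cdkn1a chr17:29090891-29090952, forward strand, from the upstream of its 2 listed starts; Mdm2 chr10:117710920-117710959 and Ccng1 chr11:40755447-40755486, both reverse strand).
Cdkn1a: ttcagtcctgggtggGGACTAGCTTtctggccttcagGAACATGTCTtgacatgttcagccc
Mdm2: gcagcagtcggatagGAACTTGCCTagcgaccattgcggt
Ccng1: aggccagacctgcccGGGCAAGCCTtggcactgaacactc
Of the 10 windows of these 8 genes, 4 held a half-site, the other one being that of Trp53, and 1 held the cyclic AMP response element, that of Plk2. Over all RefSeq windows of this length the shares were 7.13% and 1.55%, and most of the 10 genes were chosen for a known p53 link. Stretches with a mismatch to the half-site were not marked. The functional Mdm2 response elements described in the literature lie in an intron and are outside this window.

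The wider p53 network held genes on both sides of the controls, and its list of other targets included Fas, the edited gene. Of 43 other listed targets, 37 were tested, 0 passed the adjusted threshold and 7 (18.9%) had an unadjusted p under 0.05 in limma, 4 higher and 3 lower, beside 14.9% of all tested genes (9.25% higher, 5.68% lower). Their median log2 fold change was -0.01, against 0.13 for all tested genes, and it was -0.24 under quantile normalization and -0.21 with equal medians. The count of 7 changed with each library left out, as did the count over all tested genes. The median was then 0.07 without control 1 and -0.26 without control 2. It was -0.02 without the library labelled CD95ko 1 and -0.1 without the library labelled CD95ko 2.

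Of the 10 tested cell death targets 3 had an unadjusted p under 0.05 in limma, 1 higher and 2 lower, beside 14.9% of all tested genes. The count of 3 changed with each library left out, as did the count over all tested genes. Fas, the edited gene, was 1 of the 10. Its log2 fold change of -0.63 lay next to the middle, so the median rests partly on it. The median log2 fold change of the 10 was -0.28, and it was -0.12 without control 1 and -0.66 without control 2. It was 0.07 without the library labelled CD95ko 1 and -0.05 without the library labelled CD95ko 2. Bax, a pore-forming pro-death BCL2 family protein, was 259.38 and 307.03 TPM in the controls and 163.24 and 161.9 TPM in the CD95ko libraries (limma adjusted p = 0.265). Aen, an apoptosis-linked nuclease, was 44.87 and 31.23 TPM in the controls and 17.54 and 6.79 TPM in the CD95ko libraries (limma adjusted p = 0.216). Perp, a desmosome-associated p53 target of epithelia, went the other way, from 154.65 and 119.02 TPM to 281.17 and 390.12 TPM (limma adjusted p = 0.15). Bax shares 15.8% of its 25-base stretches with other transcripts.

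Of the 20 tested repair and metabolism targets 4 had an unadjusted p under 0.05 in limma, 3 higher and 1 lower, beside 14.9% of all tested genes (9.25% higher, 5.68% lower). The count of 4 changed without either control and without the library labelled CD95ko 1, as did the count over all tested genes. The median log2 fold change was 0.02, and it was 0.24 without control 1 and -0.22 without control 2. It was -0.1 without the library labelled CD95ko 1 and 0.03 without the library labelled CD95ko 2. Xpc, the damage sensor of nucleotide excision repair, was 16.66 and 10.03 TPM in the controls and 26.79 and 74.99 TPM in the CD95ko libraries (limma adjusted p = 0.223). Fdxr, a mitochondrial ferredoxin reductase, was 5.96 and 5.81 TPM against 20.17 and 16.5 TPM (limma adjusted p = 0.234). Dcxr, a xylulose reductase, was 11.85 and 9.74 TPM against 21.55 and 28.68 TPM (limma adjusted p = 0.293). Rps27l, a ribosomal protein paralog, was on the lower side, at 688.09 and 885.76 TPM against 479.22 and 330.65 TPM (limma adjusted p = 0.218), and 23.8% of its 25-base stretches occur elsewhere.

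The 7 tested cell cycle targets had a median log2 fold change of -0.3, with 0 under an unadjusted p of 0.05 in limma beside 14.9% of all tested genes. The median was -0.07 without control 1, -0.67 without control 2, -0.11 without the library labelled CD95ko 1, -0.52 under quantile normalization and -0.5 with equal medians. Without the library labelled CD95ko 2 the median was -0.41. The count of 0 changed without either CD95ko library, as did the count over all tested genes. Gadd45a, a growth arrest and DNA damage protein, was 481.71 and 525.97 TPM in the controls and 194.7 and 404.25 TPM in the CD95ko libraries (limma adjusted p = 0.336).

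On the upstream side of the pathway, of 15 tested p53 regulators 0 passed the adjusted threshold and 1 had an unadjusted p under 0.05 in limma, beside 14.9% of all tested genes. The median log2 fold change was 0.17, and it was -0.16 without control 2, 0.39 without control 1, 0.09 without the library labelled CD95ko 1, -0.06 under quantile normalization and -0.03 with equal medians. The gene with the unadjusted p under 0.05 was Chek1, a checkpoint kinase of the replication stress response. It was 16.81 and 16.52 TPM in the controls and 5.1 and 7.75 TPM in the CD95ko libraries (limma adjusted p = 0.288). The count of 1 changed without either control, as did the count over all tested genes. The count of regulators was 2 under quantile normalization and with equal medians. The p53 relatives Trp63 and Trp73 and the Arf and p16 locus Cdkn2a were listed at 0 in every library.

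Among cyclin-dependent kinase inhibitors other than Cdkn1a, 3 of 6 were tested. Cdkn2c, which encodes the CDK4 and CDK6 inhibitor p18, was 88.87 and 104.95 TPM in the controls and 196.85 and 223.35 TPM in the CD95ko libraries (limma adjusted p = 0.171). Cdkn1b, which encodes p27, was 41.35 and 52.54 TPM against 75.4 and 78.13 TPM (limma adjusted p = 0.38). For these 2 genes the groups did not overlap and CD95ko was higher, as for 29.2% of all tested genes. Cdkn2d showed no such separation, with a log2 fold change of 0.11.

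**Figure D4:**
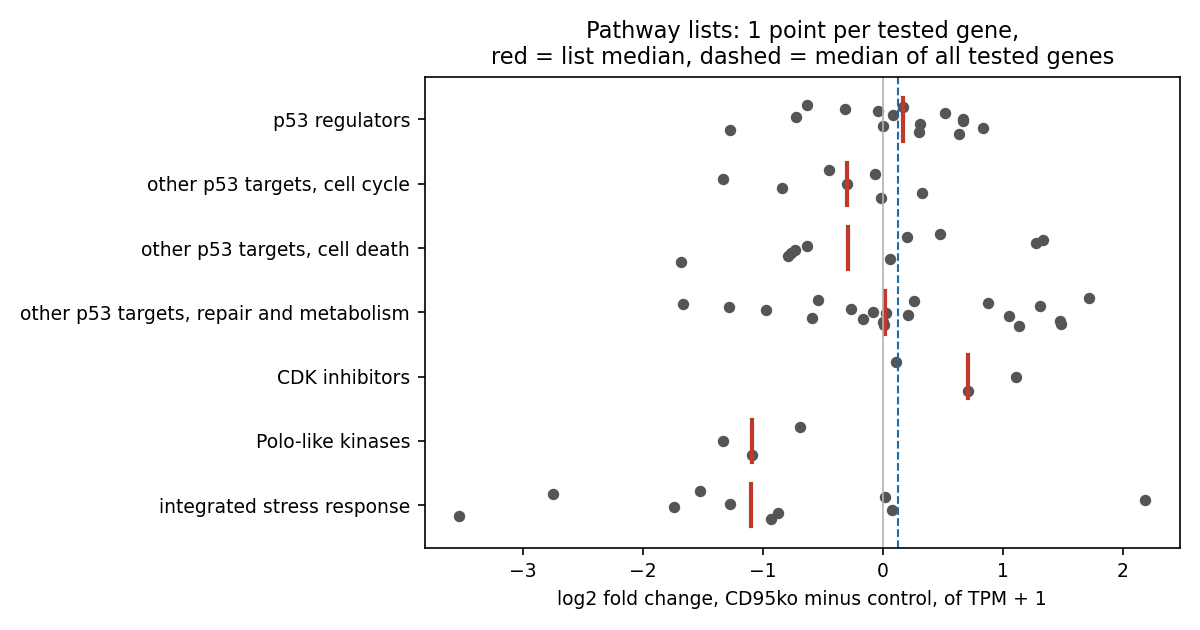
Log2 fold change (CD95ko minus control, of TPM + 1) of each tested gene in 7 lists, with the list median as a red bar and the median of all tested genes, 0.13, as a dashed line. The 3 lists of other p53 targets have medians of -0.3, -0.28 and 0.02, and the cell death list includes Fas, the edited gene. The medians are -1.09 for the 3 tested Polo-like kinases other than Plk2 and -1.1 for the 10 integrated stress response genes.

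Of the other Polo-like kinases 3 were tested and 0 passed the adjusted threshold. Plk1 alone, 1 of the 3, had an unadjusted p under 0.05 in limma, beside 14.9% of all tested genes (5.68% lower, 9.25% higher). Their median log2 fold change was -1.09, and it was -0.61 without the library labelled CD95ko 2. The median was -0.83 without control 1, -0.86 without control 2 and -1.52 without the library labelled CD95ko 1. The count of 1 changed with each library left out, as did the count over all tested genes. Plk1, which drives entry into and passage through mitosis, was 81.42 and 56.5 TPM in the controls and 42.51 and 22.99 TPM in the CD95ko libraries (limma adjusted p = 0.28). Plk4, the initiator of centriole duplication, was 35.48 and 33.41 TPM against 22.15 and 19.92 TPM (limma adjusted p = 0.452). For these 2 kinases the groups did not overlap, as for 47.6% of all tested genes (18.3% lower in CD95ko). Plk3, a stress-responsive relative of Plk2, was 41.55 and 80.45 TPM in the controls and 43.44 and 11.35 TPM in the CD95ko libraries, so its groups overlapped (limma adjusted p = 0.358). Plk5 was listed at 0 throughout. Whether Plk2 differed from its relatives in fold change was not tested. In Plk1, 21.0% of the 25-base stretches occur in other transcripts, chiefly a pseudogene, and in Plk4 13.1%.

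**Figure D5:**
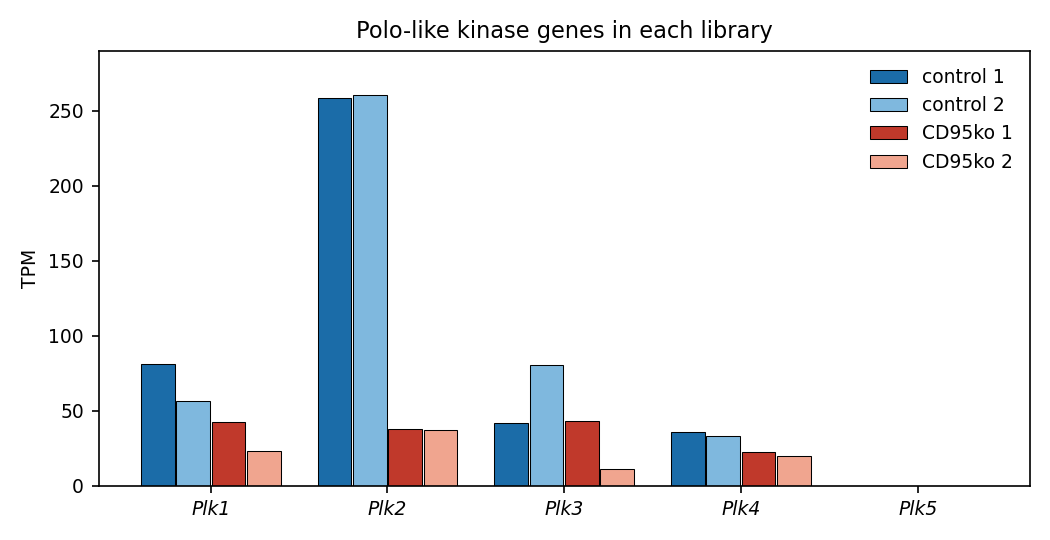
TPM of the 5 Polo-like kinase genes in each library (blue bars, controls; red bars, CD95ko libraries; 1 bar per library, no error bars). Plk2 is the highest in the controls at 258.23 and 260.17 TPM and stands at 38.03 and 36.79 TPM in the CD95ko libraries, and Plk5 is listed at 0.

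Sesn2 and Gdf15 also respond to ATF4, the factor at the centre of the integrated stress response. Of the 10 genes listed for that response, 0 passed the adjusted threshold and 7 had an unadjusted p under 0.05 in limma (6 lower, 1 higher), beside 14.9% of all tested genes (5.68% lower, 9.25% higher), and the median log2 fold change was -1.1. The count of 7 was 4 both without the filter and without the variance trend. It changed with each library left out, as did the count over all tested genes. The median was -0.43 without the library labelled CD95ko 2 and -1.66 without the library labelled CD95ko 1. Without control 1 it was -1.06, and without control 2 it was -1.15.

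Atf3, a stress-induced repressor of the CREB and ATF family, was 234.78 and 376.35 TPM in the controls and 50.27 and 12.06 TPM in the CD95ko libraries (limma adjusted p = 0.068). Ppp1r15a, which encodes the phosphatase subunit GADD34, was 216.18 and 259.95 TPM against 48.25 and 24.5 TPM (limma adjusted p = 0.0594). Ddit3, the CHOP factor, was 438.46 and 413.41 TPM against 205.53 and 149.59 TPM (limma adjusted p = 0.144). Atf4 itself was 1014.31 and 895.95 TPM against 673.42 and 400.55 TPM (limma adjusted p = 0.266). Ddit4, an inhibitor of mTORC1 that p53, hypoxia and ATF4 can each raise, stood on the higher side, at 211.87 and 181.19 TPM against 1113.6 and 719.41 TPM (limma adjusted p = 0.0594). Sesn2 was 12.26 and 4.98 TPM in the controls and 37.84 and 10.05 TPM in the CD95ko libraries, so its groups overlapped. Gdf15 was listed at 0 in control 1 and in both CD95ko libraries, and at only 1.34 TPM in control 2. Whether the level of either gene is linked to that of Atf4 was not tested.

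Profiles like that of Plk2 were sought by the Euclidean distance between log2(TPM + 1) values centred on each gene's mean over the 4 libraries. The 5 nearest of the tested genes were Car6, Hoxaas3, Zfp57, Prelid2 and Hist1h4a, at distances of 0.13 to 0.35. All 5 were under 7 TPM in the controls and listed at 0 in both CD95ko libraries, so the likeness rests on low values. Restricting the search to the 3064 genes with a mean of at least 50 TPM, a choice made after those values were seen, gave Gm11974, Relb, Rassf1, Ppp1r15a and Mettl1 at distances of 0.45 to 0.68. Relb, an NF-κB subunit, was 121.67 and 117.62 TPM in the controls and 29.45 and 21.55 TPM in the CD95ko libraries. Rassf1, a RAS-association scaffold protein, was 242.19 and 230.39 TPM against 57.35 and 51.03 TPM. Of the other p53-linked genes Mdm2 was nearest to Plk2, at 2.08, and Ccng1 farthest, at 4.56, beside a median of 2.99 over all tested genes.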

How the data were processed

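The 4 deposited tables give 1 TPM value per gene symbol and library, per the file headers, and the authors' TPM columns sum to between 999999.67 and 1000000.1. The submitters' processing notes name STAR 2.6.0, RSEM 1.3.0 and the build mm10; the annotation and strand setting are not given in the sources used here. TPM keeps no read number, so no count test, counting interval or detection floor applies, and a value of 0 is written as listed at 0.

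Groups came from the sample titles. Genes with at least 1 TPM in at least 2 libraries (11167) were compared as log2(TPM + 1) with limma 3.58.1 in R 4.3.3 (eBayes with trend, two-sided, Benjamini-Hochberg threshold 0.05, no covariate). The procedure was also run on simulated data with independent noise drawn from its own fitted variances. That run cannot show how well the model suits libraries from different lines and clones. An exact permutation test of 2 against 2 libraries cannot reach 0.05. The members and lists were chosen with earlier results of these data known. Named genes were the 10 members, Fas, the 5 profiles nearest to Plk2, and up to 5 genes per list with the smallest p. Cop1 was matched through an older symbol. Positions and shared 25-base stretches came from GENCODE M21, and promoters from RefSeq (GRCm38.p6). Alternatives were a pseudocount of 0.1, no filter, quantile normalization, equal medians, eBayes without trend, robust eBayes, a replicate block and leaving out each library.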

Additional observations from a re-analysis of the deposited data

How the results depend on the processing

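The number of genes past the adjusted threshold, 6 as reported, was 0 with a pseudocount of 0.1, 0 under quantile normalization, 0 with equal medians and 0 without the variance trend (1553, 1862, 1848 and 1531 genes at an unadjusted p under 0.05). It was 52 under robust eBayes and 62 without the filter, where variances of 0 were offset. Leaving out 1 library gave 0 to 1034 genes, 0 without either control, 1034 without the library labelled CD95ko 1 and 194 without the library labelled CD95ko 2. In these fits the lone library is assumed to vary like the other group. The cause was not tested. With the replicate block 2 genes passed; same-numbered libraries share only a number, and their deviations correlated at -0.081.

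For the 8 other tested members no alternative brought one past the threshold. Without the library labelled CD95ko 2 the log2 fold change reversed to 0.12 for Trp53, -0.12 for Cdkn1a and 0.45 for Zmat3. Without control 1 it reversed to -0.37 for Cdkn1a, 0.08 for Zmat3 and -0.23 for Phlda3. Phlda3 also reversed to -0.19 without the library labelled CD95ko 1, -0.12 under quantile normalization and -0.2 with equal medians. Over the fits with a library left out, the range was -1.35 to 0.12 for Trp53, -0.37 to 0.77 for Cdkn1a, -0.74 to 0.45 for Zmat3 and -0.23 to 0.24 for Phlda3. Mdm2, Ccng1, Sesn2 and Trp53inp1 kept their direction under every alternative. Depth is unknown, so levels of Gdf15 and Trp53inp1 near 0 have no stated precision.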
